A study of Mus musculus with 2 samples.

Results

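The 10 heat shock genes described here were chosen by symbol, from earlier results of these data, out of the 32285 features of the count tables. They are Hspa1a, Hspa1b, Hspa8, Hsph1, Dnajb1, Dnaja1, Hsp90aa1, Hsp90ab1, Hspd1 and Hspe1. All 10 were found under their symbols, and each symbol belonged to 1 feature. The list is named for the cytosol, but Hspd1 and Hspe1 encode the chaperonin and cochaperonin of the mitochondrial matrix, so the name does not cover them. Differences of these genes between libraries, classes and cells were known when they were chosen and are given as descriptions, with no test.

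Heat shock proteins are chaperones that hold, fold or release other proteins. Hsp70 proteins bind unfolded stretches with the help of J-domain proteins, which bring clients and speed up ATP hydrolysis, and of nucleotide exchange factors, which reopen the chaperone. Hsp90 proteins act on partly folded clients such as kinases and receptors. In stressed cells the transcription factor HSF1 binds heat shock elements in the promoters of many of these genes, whereas constitutive members such as Hspa8 and Hsp90ab1 are made in nearly every cell.

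The cells came from mouse embryos at E13.5, on a mixed C57BL/6J and ICR background. Both genotypes carried Isl1-Cre and R26R-eYFP, so that cells with a history of Isl1-driven Cre, and their descendants, were eYFP positive and were sorted for it. The control genotype was Isl1-Cre;R26R-eYFP, and the mutant genotype was Isl1-Cre;R26R-eYFP;Pik3caH1047R, in which Cre releases the activated PI3-kinase subunit from a transgene at the Rosa26 locus in the same cells. Each genotype gave 1 library of 3 pooled embryos, taken from the body above the liver although labelled as pharyngeal arch, and dissociated with collagenase before the sort. With 1 library a genotype there was no replicate check and no test between genotypes. Intervals are 95% intervals for counting error only, embryo and library differences cannot be told apart from genotype, and UMIs (unique molecular identifiers) count captured RNA molecules.

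After a filter that kept cells with more than 2000 and fewer than 9000 detected genes and under 10% mitochondrial UMIs, 2783 of 4505 control and 3489 of 5357 mutant cells remained, with 63153191 and 69717583 UMIs and medians of 20412 and 16839 per cell. The libraries shared 12 cell barcodes among the kept cells. Cells were clustered without the heat shock genes at the lowest resolution tried that gave at least 15 clusters. The 15 clusters were named only from marker lists. Of the 8 groups with at least 50 cells in both libraries, 7 had a class name, and cluster 6 stayed unnamed because it was led by genes of erythroid and of myeloid cells together. Endothelial cell-like (EC-like) cells expressed all 13 EC markers, with summed levels of 6660 CPM (UMIs per 1000000 UMIs of the group) in control and 6589 CPM in mutant. The 10 other marker lists summed to between 2.19 and 228 CPM in control and 6.05 and 153 CPM in mutant EC-like cells, the highest being mesenchyme in control and neuron in mutant. Their part in the results was not tested. Called by Xist and 4 genes of the Y chromosome, the control library was 95.5% female-like with 1 male-like cell, whereas the mutant library was 33.6% female-like and 53.3% male-like.

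The inducible pair came first in size. Hspa1a and Hspa1b encode nearly the same inducible cytosolic Hsp70 and lie on the minus strand of chromosome 17 of GRCm38, at 34969190 to 34972156 and at 34956436 to 34959238, each as a gene of 1 exon. Of all 100-base windows of the Hspa1a transcript (2967 bases in GENCODE vM21), 47.1% occurred letter for letter in that of Hspa1b. The counts of the pair are therefore best read as a sum, since part of the reads cannot be told apart. The 250 bases before each start, from RefSeq on GRCm38.p6, are shown because the pair had the largest ratios of the 10 genes and because the windows are almost the same. Capitals mark the 2-unit heat shock element, GAANNTTC, which is the same on both strands.

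Hspa1a, chr17:34972157-34972406, minus strand: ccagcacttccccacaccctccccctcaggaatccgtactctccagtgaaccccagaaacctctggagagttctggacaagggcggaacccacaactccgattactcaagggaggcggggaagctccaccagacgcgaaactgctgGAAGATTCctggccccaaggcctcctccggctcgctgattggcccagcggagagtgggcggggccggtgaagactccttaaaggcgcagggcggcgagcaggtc
Hspa1b, chr17:34959239-34959488, minus strand: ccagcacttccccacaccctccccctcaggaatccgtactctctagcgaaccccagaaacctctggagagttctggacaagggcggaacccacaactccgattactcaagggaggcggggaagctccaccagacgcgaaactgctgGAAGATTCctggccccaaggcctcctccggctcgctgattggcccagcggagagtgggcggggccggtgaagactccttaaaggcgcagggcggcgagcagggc

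The 2 stretches were identical at 98.8% of their 250 positions. Counted from 1 at the 5′ end, with the Hspa1a base first, the 3 substitutions were C44T, T47C and T249G, none of them in the element, which spans positions 147 to 154. A longer element of 3 alternating units, GAANNTTCNNGAA or its reverse complement TTCNNGAANNTTC, was found for Hsph1, Hspd1 and Hspe1. Each is shown with 6 bases on either side, the element in capitals. For the chaperonin genes the 3-unit matches overlap into 18 bases in the region that the 2 genes share, which is printed once, on the Hspe1 strand.

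Hspe1 and Hspd1, chr1:55088053-55088082, plus strand: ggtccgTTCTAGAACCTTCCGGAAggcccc
Hsph1, chr5:149636282-149636306, minus strand: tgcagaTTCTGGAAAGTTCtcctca

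The shared element lies 72 to 89 bases before the Hspe1 start and 127 to 144 bases before one of the Hspd1 starts, and the Hsph1 element lies 16 to 28 bases past a start of Hsph1. Of 32851 RefSeq windows from 250 bases before to 50 after a start, 0.603% held the 3-unit element, and 7.86% held GAANNTTC, the 2-unit form, which is part of every 3-unit match. Entries were given for 7 of the 10 members. One of the Dnaja1 windows held the 2-unit form, and neither Dnajb1 window held either form. A match is a description of letters and not of a bound site. Only exact matches were searched. Longer elements with a changed letter, before the pair or elsewhere, were not looked for. Hspa8, Hsp90aa1 and Hsp90ab1 are named only.

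Over all kept cells the pair was at 64.8 CPM (62.9 to 66.9) in control and at 704 CPM (698 to 710) in mutant. The mutant level was 10.9-fold the control level, a log2 ratio of 3.44 (3.39 to 3.49). Hspa1a was at 38.7 and 372 CPM and Hspa1b at 26.1 and 332 CPM, so that Hspa1a gave 59.7% of the pair in control and 52.8% in mutant. The pair made up 0.936% of the UMIs of the 10 genes in control and 8.23% in mutant. Of the 10 genes, 4 were higher in mutant by over 1.5-fold and none was lower, where 15.6% of all 20760 genes with at least 20 UMIs were higher by that much. Both Hspa1a and Hspa1b count among the 4.

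The level of the pair differed between classes within each library. In control, cluster 6 had the highest level of the 8 groups, 178 CPM (166 to 191), and its interval overlapped that of the next group, mesothelium-like cells at 158 CPM (142 to 175). Mesenchyme-like cells followed at 95.0 CPM (90.7 to 99.4), epithelium-like cells at 50.6 CPM (44.0 to 58.0), EC-like cells at 34.0 CPM (27.9 to 41.0) and branchial muscle-like cells at 27.2 CPM (25.1 to 29.4). The intervals of the last pair overlapped. Cardiomyocyte-like cells at 9.24 CPM (3.99 to 18.2) and neuron-like cells at 8.86 CPM (6.17 to 12.3) were lowest and overlapped, with only 8 and 35 pair UMIs.

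In mutant, cluster 6 was again highest of the 8 groups, at 2097 CPM (2057 to 2138), and cardiomyocyte-like cells lowest, at 40.0 CPM (33.4 to 47.5). Epithelium-like cells at 1028 CPM (1001 to 1055) and EC-like cells at 1010 CPM (994 to 1027) overlapped. They were followed by branchial muscle-like cells at 540 CPM (530 to 551), by mesenchyme-like cells at 454 CPM (441 to 466) and, overlapping with these, by mesothelium-like cells at 429 CPM (392 to 469). Neuron-like cells were at 145 CPM (137 to 154). The mutant level was above the control level in all 8 groups.

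**Figure D1:**
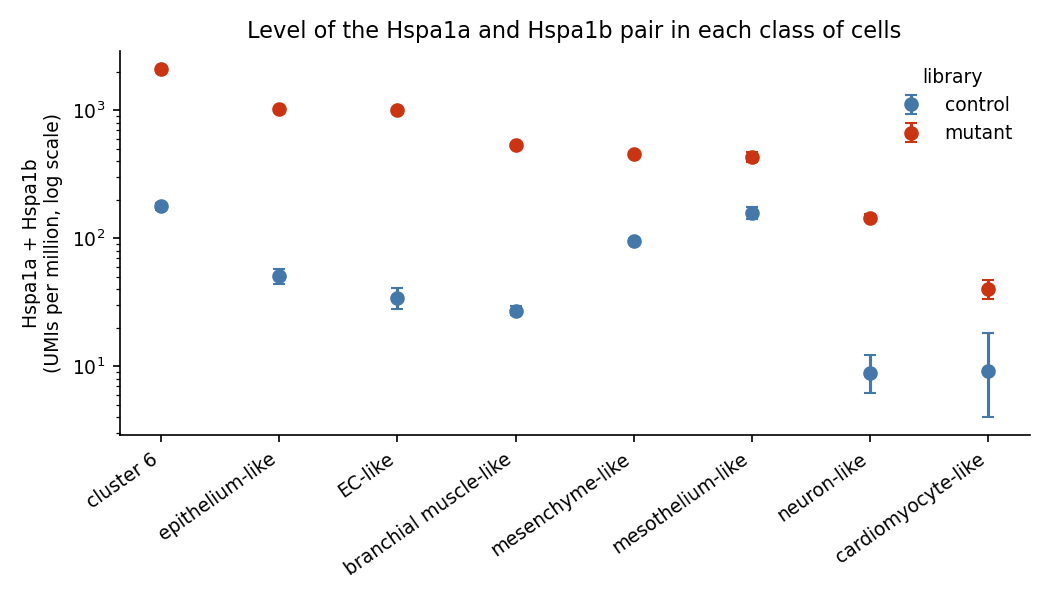
Summed Hspa1a and Hspa1b level in CPM (log axis) in the 8 compared groups of cells, ordered by the mutant level, with 1 point per library and bars for the 95% counting interval. The mutant points lie between 40.0 and 2097 CPM and the control points between 8.86 and 178 CPM, with the mutant point above the control point in every group.

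Of the 8 groups, the ratio of mutant over control was largest in EC-like cells under the settings used here. The log2 ratio there was 4.89 (4.62 to 5.18), which is 29.7-fold, and its control side rested on 109 pair UMIs. The ratio was 4.34 (4.14 to 4.55) in epithelium-like, 4.31 (4.20 to 4.43) in branchial muscle-like and 4.04 (3.55 to 4.57) in neuron-like cells, and these 3 intervals overlap. It was 3.56 (3.46 to 3.66) in cluster 6. The smaller ratios were 2.26 (2.18 to 2.33) in mesenchyme-like, 2.11 (1.09 to 3.36) in cardiomyocyte-like and 1.44 (1.24 to 1.65) in mesothelium-like cells. Mesothelium-like cells had a high control level, as did mesenchyme-like cells through cluster 4 of that class, described below. Neuron-like cells had a low level in both libraries and still a 4.04 ratio. The EC-like ratio was 3.87 when cells were classed by their own marker counts, which put 13 control and 32 mutant cells of cluster 6 among the EC-like cells, and 5.58 without the 1% of cells with most of the pair. The cardiomyocyte-like ratio was 1.04 without the cells of highest doublet score and 4.74 with classes from marker counts, and the mesenchyme-like ratio 3.53 without integration. In cells in G1 phase the ratio was 4.13 in EC-like, 4.95 in branchial muscle-like, 4.17 in cluster 6, 3.09 in mesenchyme-like and 0.53 in cardiomyocyte-like cells. The first rank of EC-like cells was lost in G1 cells and with female-like cells only (5.17 in branchial muscle-like against 4.72). It was also lost with classes from marker counts, at 3.87 in EC-like cells. There the ratio was 4.74 in cardiomyocyte-like, 4.41 in branchial muscle-like, 4.37 in epithelium-like and 4.12 in neuron-like cells. For male-like mutant against female-like control cells the branchial muscle-like ratio was 3.17.

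The 2 mesenchyme-like clusters differed. Cluster 1, led by Prrx1 and Twist1, was at 42.6 CPM in control and 476 CPM in mutant, a log2 ratio of 3.48 (3.34 to 3.63). Cluster 4, led by Adh1 and Wnt2, was at 156 CPM in control and 391 CPM in mutant, a log2 ratio of 1.33 (1.21 to 1.44). The intervals of the ratios lie apart, but they cover counting error only and not the spread over cells or embryos. Cluster 4 held 367 of the 955 control and 129 of the 655 mutant mesenchyme-like cells. It raised 3 of the 9 mesenchyme markers, whereas cluster 1 raised all 9. Among the branchial muscle-like clusters, cluster 7, led by Myh3 and Mylpf, was at 15.5 CPM in control and 616 CPM in mutant, a ratio of 5.31 (4.95 to 5.70), and clusters 0 and 8 had ratios of 4.19 (4.06 to 4.33) and 4.02 (3.72 to 4.35). Neural crest-like cells, too few to be compared, were at 91.7 CPM in 54 control and 2212 CPM in 25 mutant cells.

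The other 8 members had smaller ratios than the pair in every group. In EC-like cells their log2 ratios had a median of 0.32, where all 14156 genes tested had a median of -0.07. Counting all 10 genes, 5 were higher by over 1.5-fold in EC-like cells and none was lower, where 14.8% of genes were higher and 15% lower by that much. Those 5 were Hspa1a, Hspa1b, Hsph1, Dnajb1 and Hsp90aa1.

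**Figure D2:**
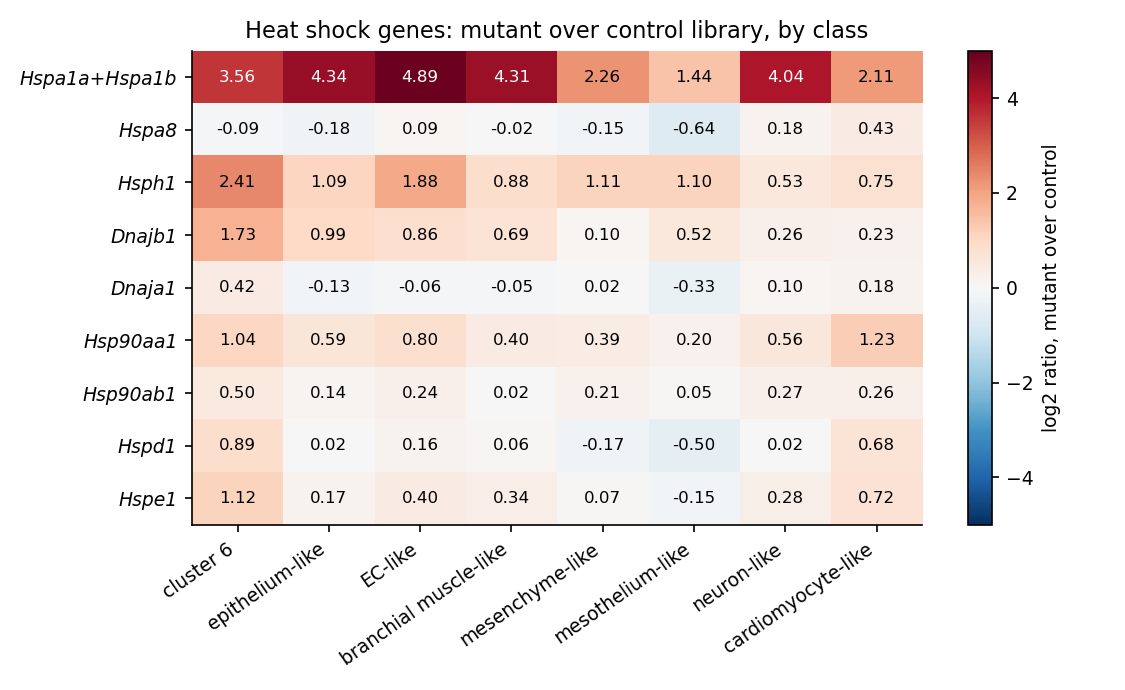
Log2 ratio of the mutant over the control library for the summed Hspa1a and Hspa1b pair and the other 8 members (lines) in the 8 groups (columns), with the value printed in each cell. The pair lies between 1.44 and 4.89 and the other members between -0.64 and 2.41.

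Hsph1, a large Hsp70 relative that serves as a nucleotide exchange factor for Hsp70, had the largest ratios after the pair in most groups. In EC-like cells it was at 67.1 CPM in control and 246 CPM in mutant, a log2 ratio of 1.88 (1.68 to 2.08). In cluster 6 it was at 79.7 and 425 CPM, a ratio of 2.41 (2.25 to 2.58). All 8 groups had an interval above 0, and 7 were past 1.5-fold. The exception, neuron-like cells, had 98.4 and 142 CPM and a ratio of 0.53 (0.36 to 0.70).

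Dnajb1, a J-domain partner of the inducible Hsp70, was at 68.1 and 123 CPM in EC-like cells, a log2 ratio of 0.86 (0.65 to 1.07). In cluster 6 it was at 96.1 and 320 CPM, a ratio of 1.73 (1.58 to 1.89), and in epithelium-like cells at 77.4 and 154 CPM, a ratio of 0.99 (0.80 to 1.18). The intervals included 0 in cardiomyocyte-like cells (0.23) and in mesenchyme-like cells (0.10). Dnaja1, the other J-domain member, had no such pattern. It was at 433 and 416 CPM in EC-like cells, a ratio of -0.06 (-0.14 to 0.03) that took a positive sign under both other scalings, and lay between -0.33 in mesothelium-like cells and 0.42 in cluster 6.

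Hsp90aa1, the inducible cytosolic Hsp90, was at 405 CPM in control and 704 CPM in mutant EC-like cells, a log2 ratio of 0.80 (0.72 to 0.88). Its interval was above 0 in all 8 groups, and its largest ratio was 1.23 (1.01 to 1.44) in cardiomyocyte-like cells, at 231 and 540 CPM. Under the settings used here the pair had its largest ratio in EC-like cells. Its cardiomyocyte-like ratio was 2.11, from 8 control pair UMIs, and lay between -0.30 and 4.74 over the alternatives. With classes from marker counts that ratio was 4.74, above the 3.87 of EC-like cells. Hsp90ab1, the constitutive cytosolic Hsp90, was at 3121 and 3696 CPM in EC-like cells, a ratio of 0.24 (0.21 to 0.28), and stayed within 1.5-fold in all 8 groups. Its ratio was 0.02 in branchial muscle-like and 0.05 in mesothelium-like cells, and both turned sign under the TMM scaling.

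Hspa8, the constitutive cytosolic Hsp70, was at 731 and 779 CPM in EC-like cells, a log2 ratio of 0.09 (0.03 to 0.16). Its interval was above 0 in 3 groups and below 0 in 4. It was lowest in mesothelium-like cells, at 688 and 440 CPM, a ratio of -0.64 (-0.79 to -0.50), and highest in cardiomyocyte-like cells, at 458 and 617 CPM, a ratio of 0.43 (0.27 to 0.59). The inducible and the constitutive Hsp70 genes thus took opposite signs in mesothelium-like, mesenchyme-like (-0.15) and epithelium-like cells (-0.18) and in cluster 6 (-0.09).

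Hspd1 and Hspe1, the mitochondrial chaperonin and its lid, are neighbours on chromosome 1 that are read from opposite strands. In EC-like cells Hspd1 was at 350 and 392 CPM, a log2 ratio of 0.16 (0.07 to 0.26), and Hspe1 at 512 and 676 CPM, a ratio of 0.40 (0.33 to 0.48). Both were past 1.5-fold in cluster 6, with ratios of 0.89 (0.82 to 0.96) and 1.12 (1.05 to 1.18), and in cardiomyocyte-like cells, with ratios of 0.68 (0.54 to 0.82) and 0.72 (0.60 to 0.84). In mesothelium-like cells both were lower in mutant, with ratios of -0.50 (-0.65 to -0.34) and -0.15 (-0.27 to -0.03). The median depth of these cells was 28114 UMIs in control and 14430 in mutant, and its part was not tested.

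Outside EC-like cells the count of members past 1.5-fold ranged from 2 to 7. In cluster 6, 7 of the 10 genes were higher, against 11.5% of genes. In cardiomyocyte-like cells 6 were higher (13.6% of genes), and in epithelium-like cells 5 (11.1%). In branchial muscle-like cells 4 were higher (17% of genes), in mesenchyme-like cells 3 (13.7%) and in neuron-like cells 2, which were the pair (8.27%). In mesothelium-like cells 3 were higher (23.1% of genes) and 1, Hspa8, was lower (14.4% of genes). The genes were chosen with these contrasts known, and nothing is read from the counts.

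Of the 8 compared groups, cluster 6 had the highest pair level and the most members past 1.5-fold, and its makeup differed between the libraries. The 9 macrophage markers summed to 5156 CPM in control and 2193 CPM in mutant, and the 7 erythroid markers to 3600 and 10305 CPM. Cells were therefore also called by their own marker counts. In the 136 control and 87 mutant cells called macrophage-like, all of them in cluster 6, the pair was at 172 and 2968 CPM, a log2 ratio of 4.11 (3.99 to 4.23). Hsph1 was at 74.8 and 461 CPM there, a ratio of 2.62 (2.43 to 2.82). Only 3 control and 16 mutant cells were called erythroid-like, with the pair at 175 and 410 CPM.

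The pair was spread unevenly over single cells. To compare cells at 1 depth, each was thinned to 5000 UMIs, and 61 control and 173 mutant cells below that depth were left out. In mutant EC-like cells 55.2% (51.3 to 59.0) of 665 cells had a pair UMI, against 7.64% (3.87 to 13.3) of 144 control cells. Before thinning the shares were 66.1% and 19.0%, at median depths of 17004 and 20121 UMIs. At least 5 pair UMIs were seen in 29.0% (25.6 to 32.6) of mutant and 0.694% (0.0176 to 3.81) of control EC-like cells. At least 20 were seen in 6.17% (4.46 to 8.27) of the mutant cells and in none of the 144 control cells, which allows a share of up to 2.08% as 3 counts of the total and 2.53% by the Clopper-Pearson limit.

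Cardiomyocyte-like cells gave the lowest share of the 8 compared groups in each library. Their control interval overlapped that of neuron-like cells, where 4.32% (1.89 to 8.34) of 185 control cells had a pair UMI. Among cardiomyocyte-like cells 11.2% (7.00 to 16.8) of 178 mutant and 1.85% (0.0469 to 9.89) of 54 control cells had a pair UMI after thinning. Their median depths before thinning were 15882.5 and 14424 UMIs. None had 5 pair UMIs, which allows a share of up to 1.69% in mutant and 5.56% in control as 3 counts of the total, and 2.05% and 6.60% by the Clopper-Pearson limit. The intervals of the mutant EC-like and cardiomyocyte-like shares lie apart, but they take the cells of 1 library as independent. RNA free in the droplets was not measured apart from these shares. The hepatoblast markers summed to between 17.8 and 46.2 CPM in the 8 compared groups in mutant and between 0.646 and 4.63 CPM in control. The part of such RNA in the pair levels was not tested. In cluster 6 the share with a pair UMI was 26.6% (20.1 to 34.0) in control and 58.8% (51.0 to 66.3) in mutant. At least 20 UMIs were seen in 25.9% (19.5 to 33.1) of the mutant cells, and the highest cell had 72 of 5000 UMIs. The 5% of mutant cluster 6 cells with most pair UMIs held 26.1% of them, against 50.4% for mesenchyme-like and 32.5% for EC-like cells of that library.

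**Figure D3:**
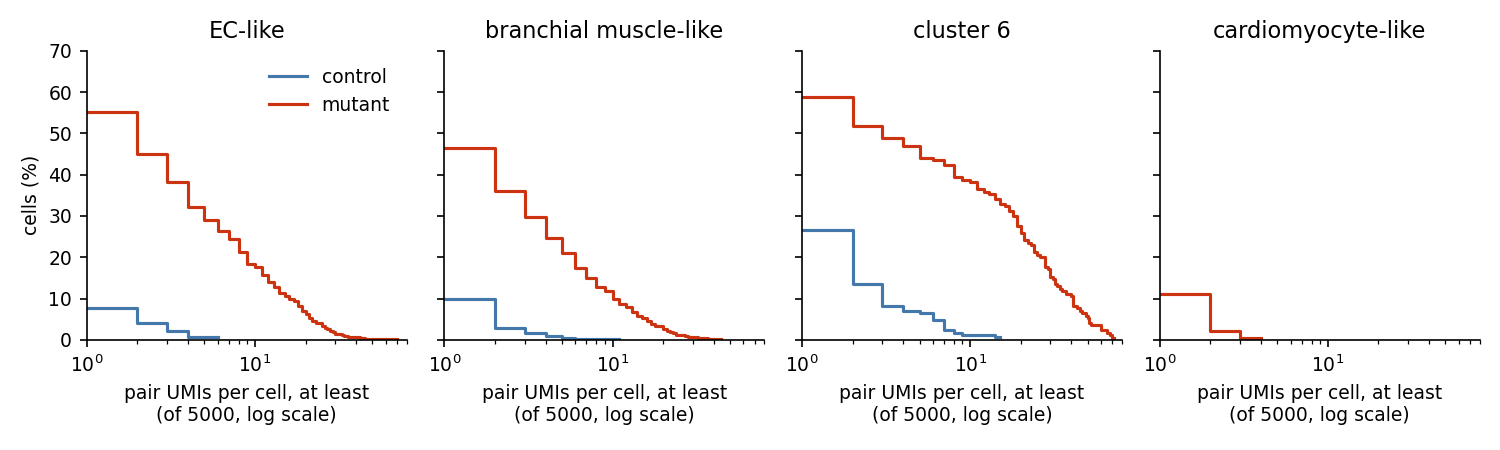
Share of thinned cells (%) with at least the number of pair UMIs on the x axis (of 5000, log axis) in 4 groups, by library. In mutant EC-like cells 55.2% had at least 1 and 6.17% at least 20, and in mutant cluster 6 58.8% and 25.9%, whereas no cardiomyocyte-like cell reached 5 (the control line there is a single point at 1.85%).

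In mutant EC-like cells the median was 1 pair UMI and the 90th percentile 15. The variance over cells, divided by the mean, was 7.64 for Hspa1a and 7.12 for Hspa1b in mutant EC-like cells and 3.35 and 1.39 in control. The means were 2.38 and 2.23 UMIs per cell in mutant and 0.0972 and 0.0625 in control. This measure can rise with the mean alone, so no change in unevenness between the libraries is read from it. For Hsph1 the variance over the mean was 5.95 in mutant and 1.32 in control, although the control mean was only 0.264 UMIs per cell. For the constitutive members it was nearly level, at 1.92 and 1.75 for Hspa8 and at 3.28 and 2.99 for Hsp90ab1. Hspa8 was seen in 91.4% of mutant and 89.6% of control EC-like cells.

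Within the mutant library the members differed in how far they went with the pair from cell to cell. Over the 665 thinned EC-like cells, Hspa1a and Hspa1b had a Pearson's r of 0.81 with each other. With the pair, r was 0.56 for Hsph1, 0.38 for Hsp90aa1, 0.33 for Dnajb1, 0.25 for Hspe1 and 0.22 for Hspd1. It was 0.15 for Dnaja1, 0.13 for Hsp90ab1 and 0.11 for Hspa8. In cluster 6 the values were 0.62 for Hsph1, 0.64 for Dnajb1 and 0.43 for Hsp90aa1 (170 cells), and in neuron-like cells 0.21, 0.07 and 0.11 (452 cells). The cells of a library share their capture and sort, and these correlations are descriptions.

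**Figure D4:**
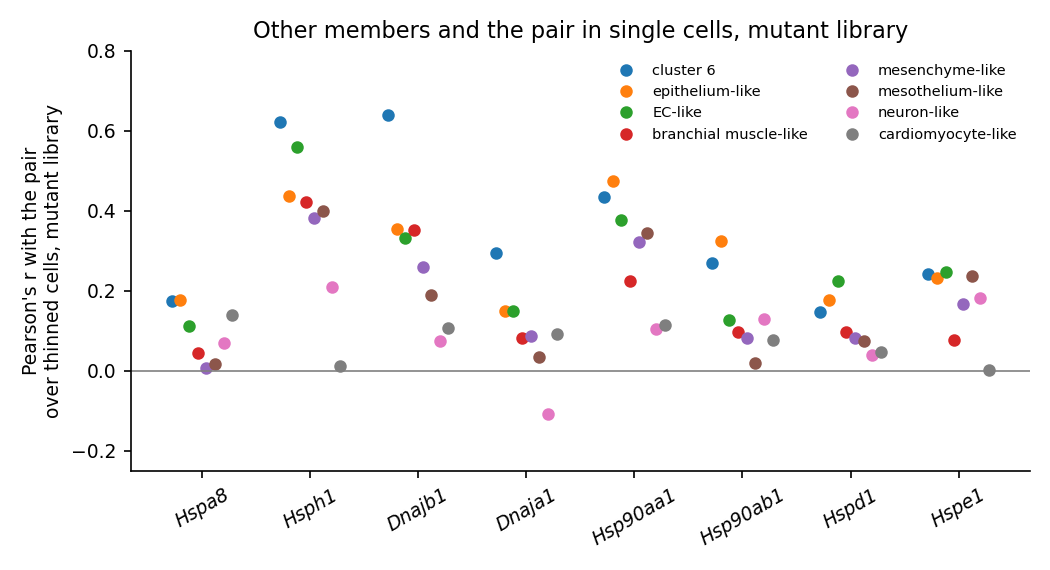
Pearson's r between each of the other 8 members and the pair over thinned cells of the mutant library, 1 point per group. Hsph1, Dnajb1 and Hsp90aa1 reach 0.62, 0.64 and 0.48, and the points of the constitutive Hspa8 stay at or below 0.18.

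Searched over genes, some of the same members stood near the pair. Over 6038 thinned cells, centred within group and library, the 5 of 9925 genes most like the pair were Hsph1 (r = 0.38), Dnajb1 (0.27), the small heat shock gene Hspb1 (0.26), Hsp90aa1 (0.24) and Jun (0.20). Over the 16 sums of 8 groups in 2 libraries, the 5 of 4375 genes most like it were Dnajb1 (r = 0.89), Ero1l (0.86), Hsph1 (0.81), Slc2a3 (0.80) and Slc16a3 (0.79). Ero1l encodes an oxidase of the endoplasmic reticulum, Slc2a3 a glucose transporter and Slc16a3 a lactate transporter. Of the other members, Hsp90aa1 ranked 35th, Hsp90ab1 105th, Hspe1 756th, Hspa8 1147th, Hspd1 1785th and Dnaja1 1878th over those sums. The pair was higher in mutant in all 8 groups, so any gene higher in the mutant library can rank high there. No link to the pair is read from these ranks. The points of a library share its embryos, sort and depth.

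The mutant library held cells of female and of male embryos, and the pair differed between them. Over all cells it was at 839 CPM in 1173 female-like and 649 CPM in 1861 male-like mutant cells, against 65.9 CPM in the 2659 female-like control cells. In branchial muscle-like cells the female-like cells were at 990 CPM and the male-like cells at 248 CPM, a log2 ratio of male-like over female-like of -2.00 (-2.06 to -1.93). Clusters 0, 7 and 8 of that class gave -2.10, -1.34 and -2.45. In epithelium-like cells the order was the opposite, with 769 CPM in female-like and 1311 CPM in male-like cells, a ratio of 0.77 (0.68 to 0.86) that was 1.90 in G1 cells.

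EC-like cells were nearly level between the sex-like groups, at 947 and 1037 CPM, a log2 ratio of 0.13 (0.08 to 0.18). Cluster 6 was at 2501 and 1846 CPM (-0.44) and neuron-like cells at 164 and 112 CPM (-0.55, but 0.012 in thinned cells). Mesenchyme-like cells had -0.21 as a class, from clusters that went opposite ways. Cluster 1 was at 618 CPM in female-like and 440 CPM in male-like cells (-0.49), and cluster 4 at 78.2 CPM in 25 female-like and 481 CPM in 91 male-like cells (2.62, 2.17 to 3.11). The 78.2 CPM of female-like mutant cells in cluster 4 lay below the 156 CPM of all control cells there.

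**Figure D5:**
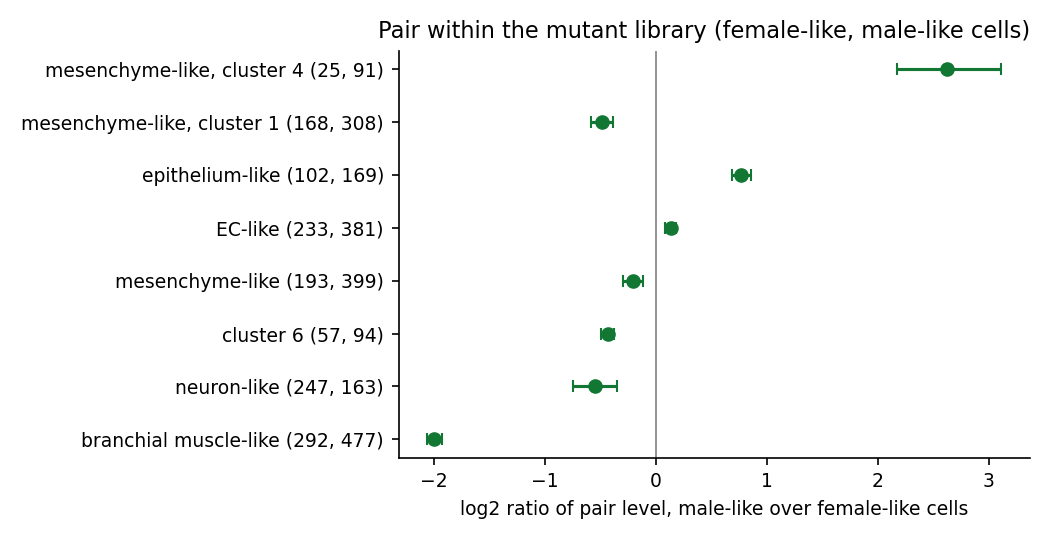
Log2 ratio of the pair level in male-like over female-like cells of the mutant library, with 95% counting intervals, for the groups with at least 50 cells of either kind and for the 2 mesenchyme-like clusters (numbers of female-like and male-like cells in brackets). Branchial muscle-like cells lie at -2.00, EC-like cells at 0.13, epithelium-like cells at 0.77 and mesenchyme-like cluster 4 at 2.62.

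The sex-like groups stand for embryos of the pool, of which each sex had at least 1, so sex and embryo cannot be told apart. With female-like cells of both libraries, the mutant over control ratio of the pair was 4.72 in EC-like, 5.17 in branchial muscle-like, 3.90 in epithelium-like and 4.19 in neuron-like cells. The intervals of these 4 were above 0. In cardiomyocyte-like cells it was -0.30 (-2.35 to 1.68), from 11 control and 12 mutant cells. Hsph1 in branchial muscle-like cells went with the pair, at 374 CPM in female-like and 208 CPM in male-like mutant cells and 149 CPM in female-like control cells. Dnajb1 there was at 164, 95.8 and 75.1 CPM. Hspa8 was at 833, 711 and 779 CPM. The summed immediate early genes, described last, were at 2243, 1886 and 1541 CPM in these cells, and their part in the difference was not tested.

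Of the other chaperone genes, the 36 genes of HSF1 and the cytosolic cochaperones had 11 higher and 1 lower by over 1.5-fold in EC-like cells, with a median log2 ratio of 0.21, where 14.8% of all genes were higher and 15% lower by that much. Among those with at least 20 UMIs in each library, the highest was the small heat shock gene Hspb1, at 31.5 and 142 CPM (2.17, 1.88 to 2.47). Jmjd6 (1.10) came next, and the lowest of these were Hspbp1 (-0.34) and Dnajb5 (-0.75). Hsf1 itself, picked after its values were seen, was at 50.6 and 41.2 CPM (-0.30, -0.55 to -0.04). None of the 8 genes of the cytosolic chaperonin CCT was past 1.5-fold, with ratios from -0.02 for Cct3 to 0.16 for Cct8 and a median of 0.11. Of 7 other mitochondrial chaperones and proteases 1 was higher, Lonp1 (0.60), with a median of 0.03.

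The chaperones of the endoplasmic reticulum had the highest list median in EC-like cells, 0.78, with 9 of 13 genes higher by over 1.5-fold and none lower, against the 14.8% and 15% of all genes. Hsp90b1, their Hsp90, was at 910 and 2073 CPM (1.19, 1.13 to 1.24), and Sdf2l1 at 54.3 and 121 CPM (1.16). The lowest were Dnajc3 (0.48) and Canx (0.38). Across the 8 groups the list median went with the pair ratio only in part. Under the settings used here, EC-like cells had the highest value of both, and mesothelium-like cells the lowest (list median -0.25). The list median was low in epithelium-like cells, at 0.08, although the pair ratio there was 4.34. In cluster 6, with a pair ratio of 3.56, it was -0.10. None of the 13 genes was past 1.5-fold there, where 11.5% of all genes were higher and 19.1% lower by that much. The makeup of cluster 6 differed between the libraries, and its part in this was not tested. In branchial muscle-like cells 7 of 13 were higher, with a median of 0.60, where 17% of all genes were higher.

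Immediate early genes, which are induced within minutes of many stimuli, including tissue dissociation, were measured beside the pair as a partial sign of cell handling. In EC-like cells their 17 genes summed to 2710 CPM in control and 3010 CPM in mutant, with a median log2 ratio of 0.10, 3 genes higher and 2 lower by over 1.5-fold, where 14.8% and 15% of all genes were. Among those with at least 20 UMIs in each library, the highest were Atf3 (1.42) and Ier3 (1.29). The lowest of these were Fosb (-0.45) and Egr3 (-1.82). Within EC-like cells the sum was 3960 CPM in female-like and 2488 CPM in male-like mutant cells, against 2782 CPM in female-like control cells. In cluster 6 the sum was 8733 and 4072 CPM and 13 of 17 were lower by over 1.5-fold (median -1.34), where 19.1% of all genes were lower. That cluster had lower macrophage and higher erythroid marker levels in mutant, and the part of this makeup in the fall was not tested. The medians were -0.86 in mesothelium-like, -0.58 in epithelium-like and -0.37 in mesenchyme-like cells. Branchial muscle-like cells went the other way, with a median of 0.29 and sums of 1555 CPM in control and 2066 CPM in mutant. There 5 of the 17 genes were higher by over 1.5-fold and 0 lower, where 17% of all genes were higher. For neuron-like cells the median was 0.17, and the cardiomyocyte-like median was 0.0073. In single EC-like cells, r between the summed immediate early genes and the pair was 0.21 in mutant and 0.36 in control. The control value rests on 11 of 144 cells with a pair UMI. In those control cells the other 8 members had r with the pair of at most 0.17, the highest being Dnajb1. The immediate early genes do not show how far the heat shock genes themselves answer to handling. The part of cell handling in the result was not tested.

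The pair was higher in mutant on either side of the lower edge of the filter on cells. Cells with over 2000 and up to 2500 genes, just inside, had the pair at 45.1 CPM in 74 control and 454 CPM in 235 mutant cells. Barcodes with over 1500 and up to 2000 genes, just outside, had it at 40.3 CPM in 75 control and 490 CPM in 212 mutant barcodes.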

How the data were processed

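Single cells of 1 control and 1 mutant library were captured with the 10x 5′ kit. Per the labels, the authors aligned and counted reads with Cell Ranger 7.1.0 on mm10. The deposited values are raw UMI counts per gene and cell, with no normalization. The 10 members and all lists were chosen with earlier results of these data known. Genes named were the members, the 5 genes most like the pair on 2 measures, and in each list the 2 highest and 2 lowest ratios in EC-like cells where each library had at least 20 UMIs.

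The filter required over 2000 and under 9000 detected genes and less than 10% mitochondrial UMIs. Kept cells were integrated in Seurat 5.3.0 (R 4.3.3) with 2000 variable genes, without 96 listed genes, and cell-cycle scores were regressed out. They were clustered on 30 components at resolution 0.27, the lowest tried that gave at least 15 clusters. Clusters were named from at least 3 raised markers, except where most markers of a second list were also raised (cluster 6, 6.22% of control and 5.04% of mutant cells) or at least 3 smooth muscle genes were among the leading genes (cluster 13, 1.37% and 0.717%). Both exceptions were set after the clusters were seen. Scrublet, in scanpy 1.11.5, called 0 control and 1 mutant barcode and so did not work here, and no doublets were removed and the highest scores were left out in an alternative.

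For each class, the UMIs of a library's cells were added up and scaled to CPM by their total. Levels have exact Poisson, ratios conditional binomial and shares Clopper-Pearson intervals of 95% (scipy 1.17.1). They cover counting error only. With 1 library a genotype no p-value was computed. A gene was called past 1.5-fold if it had at least 20 UMIs in both libraries together, with counts below 3 set to 3. Ratios and intervals were run on simulated counts drawn from a Poisson model of the EC-like sums. The intervals assume counting error of that kind, so the run cannot show how they hold for differences between cells or embryos. Cells with Xist but none of the Y-linked Ddx3y, Uty, Kdm5d and Eif2s3y were called female-like, and those with a Y-linked gene but no Xist male-like. Alternatives included edgeR 4.0.16 TMM factors.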

Additional observations from a re-analysis of the deposited data

Results flagged for a closer look

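Barcodes that failed the cell filter also carried the pair. It was at 339 CPM (322 to 357) in 1868 mutant barcodes and at 53.7 CPM (46.5 to 61.6) in 1722 control barcodes, so the signal lay above that of the control library. Barcodes with 2000 genes or fewer had 461 CPM in mutant and 45.1 CPM in control. The difference was much smaller with 9000 genes or more. There it was 98.2 CPM (82.2 to 116) in 16 mutant and 68.6 CPM (56.1 to 83.0) in 19 control barcodes, with overlapping intervals.

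Members took opposite signs in different groups, and these differences were not tested. Dnaja1 had a log2 ratio of mutant over control of 0.42 in cluster 6 and -0.33 in mesothelium-like cells. Hspa8 had 0.43 in cardiomyocyte-like and -0.64 in mesothelium-like cells. Hspd1 had 0.89 in cluster 6 and -0.50 in mesothelium-like cells, and Hspe1 1.12 and -0.15 in the same groups. Within the mutant library, the pair ratio of male-like over female-like cells was 0.77 in epithelium-like and -2.00 in branchial muscle-like cells.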

How the results depend on the processing

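The pair was higher in mutant than in control in all 8 groups under every alternative, with 1 exception: with female-like cells the cardiomyocyte-like ratio was -0.30 in place of 2.11, from 11 control and 12 mutant cells. The other cardiomyocyte-like values were 1.04 without high doublet scores, 4.74 with classes from marker counts, 0.53 in G1 cells and 0.49 for male-like mutant against female-like control cells. Neuron-like cells stayed within their interval under all 13 alternatives. The counting interval was left as follows, as log2 ratios of mutant over control. Without high doublet scores the EC-like ratio was 5.29. Without integration mesenchyme-like cells were at 3.53, and at resolution 0.8 at 2.67. With classes from marker counts EC-like cells were at 3.87, mesenchyme-like at 2.42 and mesothelium-like at 1.22. The mean over cells gave 4.08 for branchial muscle-like, 3.96 for cluster 6, 4.57 for epithelium-like and 2.48 for mesenchyme-like cells, and thinned cells gave 4.10, 3.97, 4.83 and 2.51, with 1.70 for mesothelium-like cells. Without the 1% of cells with most of the pair, EC-like cells were at 5.58, branchial muscle-like at 4.51, cluster 6 at 3.70 and mesothelium-like at 1.23. G1 cells gave 4.13 for EC-like, 4.95 for branchial muscle-like, 4.17 for cluster 6, 3.99 for epithelium-like, 3.09 for mesenchyme-like and 0.88 for mesothelium-like cells. Female-like cells gave 5.17 for branchial muscle-like, 3.81 for cluster 6, 3.90 for epithelium-like, 2.44 for mesenchyme-like and 1.11 for mesothelium-like cells, and male-like mutant against female-like control cells 3.17, 3.37 and 4.67 for the first 3 of these and 1.77 for the last.

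The median of the other 8 members in EC-like cells, 0.32, was 0.26 with classes from marker counts, 0.44 with the TMM factor, 0.43 with the median ratio of genes, 0.24 as a mean over cells and in thinned cells, 0.41 in G1 cells, 0.46 in female-like cells and 0.25 for male-like mutant against female-like control cells. The number of members past 1.5-fold in EC-like cells, an alternative set chosen after seeing the data, was 5 throughout except for 4 with male-like mutant cells. The TMM factor moved all EC-like ratios up by 0.12, neuron-like by 0.11 and cardiomyocyte-like by 0.15, and mesothelium-like ratios down by 0.12.

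For male-like over female-like mutant cells, the neuron-like ratio of -0.55 turned to 0.012 in thinned cells, and was -0.087 without high doublet scores, -0.17 with classes from marker counts, -0.045 as a mean over cells and -0.0060 without the top 1% of cells. EC-like cells were at 0.20 with classes from marker counts, 0.020 without the top 1% and 0.31 in G1 cells, and branchial muscle-like cells at -1.82 and -1.77 under the last 2. Cluster 6 was at -0.52 without high doublet scores, -0.33 as a mean over cells, -0.37 thinned, -0.57 without the top 1%, -0.0073 in G1 cells and -0.60 with 2 UMIs for a call. Epithelium-like cells were at 0.51 with classes from marker counts, 0.62 as a mean over cells, 0.41 thinned, 0.94 without the top 1% and 1.90 in G1 cells, and mesenchyme-like cells at -0.37 as a mean over cells, -0.35 thinned, -0.37 in G1 cells and -0.31 with 2 UMIs for a call. Beyond fewer or other cells in each alternative, the cause of these shifts was not tested. The alternatives that redraw the classes gave no value for cluster 6, which has no class name.

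No paired analysis was possible because each genotype had 1 library, and leaving out a replicate was not possible for the same reason. Depth limits the cardiomyocyte-like and neuron-like values in control, which rest on 8 and 35 pair UMIs. The EC-like control value rests on 109 pair UMIs. After thinning, 8 of the 144 control EC-like cells held 87.0% of their 23 pair UMIs.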

Other observations

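Cardiomyocyte-like cells, which had the lowest pair level of the 8 compared groups in the mutant library, also differed in other measures. Their median mitochondrial share was 0.0502% in control and 0.0487% in mutant, against medians from 1.35% to 2.07% in the other compared groups. No sex-like call could be made for 43 of 54 control and 89 of 184 mutant cardiomyocyte-like cells, against 20 of 888 and 73 of 842 branchial muscle-like cells.

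Hepatoblast-like cells were seen only in the mutant library, where there were 47, so no ratio was formed for them.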
